A study of Mus musculus and Bos taurus with 26 samples.

Results

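Gene expression with mutant against wild-type histone deacetylase 1 was compared in early 2-cell mouse embryos, 24 h after fertilization. Mutant embryos had been injected as zygotes with mRNA for mutant Hdac1, and the embryos they were set against had received wild-type (WT) Hdac1 mRNA at the same stage. Each group had 2 libraries, so 4 of the 26 libraries of the series carry the comparison. Of 27988 mouse genes in the deposited values, 11099 had an FPKM of 1 or more in 2 or more of these libraries and were tested. FPKM are fragments counted on a gene, scaled to its transcript length and to the size of the library.

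Both groups thus carried injected Hdac1 mRNA, and no water-injected or uninjected embryos at 24 h were analysed here. An effect of the mutant protein and an effect of extra WT protein cannot be told apart here. The labels do not give the mutation, the strain, the number of embryos in a library or whether the replicates came from separate collections. The p-values rest on the spread between replicates, taken over all 22 mouse libraries of the series, and that spread may be technical. Later samples used for comparison were late 2-cell embryos at 36 h: mutant against WT Hdac1 mRNA, mutant against WT Hdac2 mRNA, and culture in 50 nM FK228 against DMSO, again with 2 libraries in every group. FK228, or romidepsin, inhibits class I histone deacetylases. These late libraries are all separate from the early ones.

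HDAC1 and its close relative HDAC2 remove acetyl groups from histones as the catalytic subunits of the SIN3, NuRD, CoREST and MiDAC complexes, and histone deacetylation at a promoter generally goes with lower transcription. A newly fertilized mouse embryo lives on RNA stored in the oocyte. Its own genome is switched on in a minor wave from the late zygote to the early 2-cell stage and then in a major wave at the late 2-cell stage. In the minor wave the homeobox factor Dux drives a brief burst of 2-cell genes such as the Zscan4 family, while the major wave brings on genes of the ribosome and of other housekeeping work. The title of the series asks about HDAC1/2 in this zygotic genome activation.

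The 4 libraries were alike at large. Between 10704 and 11179 genes reached 1 FPKM in a library, and across tested genes on the log2(FPKM + 1) scale the mutant replicates correlated with r = 0.974 and the WT replicates with r = 0.984, against 0.972 to 0.978 between the groups. Absolute depth is unknown from FPKM. Relative depth estimated from the values of low genes was 0.932 and 0.615 in the mutant libraries, against 1.07 and 1.11 in the WT libraries, so mutant replicate 2 was the shallowest. All 15 oocyte and early embryo markers were tested, at 10.1 to 1058 FPKM in any library, so the labelled cell type is borne out by its markers. None of the 15 was called in either direction. In 4 of them both mutant libraries lay below both WT libraries, and in 0 both lay above. In this way 17.7% of all tested genes lay below and 15.6% above.

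Hdac1, the injected gene (GRCm38 chromosome 4, 129516104 to 129542713, minus strand, protein coding), stood at 4007 and 2952 FPKM in the mutant libraries, against 7253 and 4519 FPKM in the WT libraries. Both mutant values lay below both WT values. The log2 difference in log2(FPKM + 1), mutant minus WT, was −0.74 ± 0.18 (SE) with adjusted p = 0.0632 in limma, which missed the threshold of 0.05. It passed without WT replicate 2 (−1.08, adjusted p = 0.0159). Late embryos injected with water were at 92.2 and 89.3 FPKM of Hdac1, so both early groups stood far above an uninjected level of the later stage. The values cannot separate injected mRNA from the embryo's own transcripts.

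Hdac2, the partner enzyme, was at 34.9 and 31.7 FPKM in mutant embryos and at 35.4 and 33.9 FPKM in WT embryos, a log2 difference of −0.06 ± 0.14. Of the other class I members, Hdac3 was at −0.11 ± 0.29 and Hdac8 at 0.06 ± 0.27 (adjusted p = 1 for Hdac2, Hdac3 and Hdac8, limma), and the sign of Hdac2, Hdac3 and Hdac8 turned when 1 library was left out. Kdm5b, a demethylase of histone H3 lysine 4, had 1.58 and 3.77 FPKM in mutant embryos and 4.70 and 4.75 FPKM in WT embryos, a difference of −0.71 ± 0.25 (adjusted p = 0.302). Its call came only without mutant replicate 2 (−1.15, adjusted p = 0.0282).

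Of the 11099 genes tested, 53 were called higher in mutant embryos (0.478% of genes tested) and 74 were called lower (0.667%), at an adjusted p under 0.05 in limma. At an unadjusted p under 0.05 the counts were 318 higher and 484 lower. The test was a limma fit of log2(FPKM + 1) in which all 22 mouse libraries shared the estimate of the spread, with p-values adjusted by Benjamini-Hochberg over all tested genes. The median log2 difference over all tested genes was −0.0086. FPKM are relative to the total of a library, and in whole embryos fewer cells with a transcript and less of it per cell cannot be told apart. All 127 called genes had libraries that did not overlap between the groups, as did 1728 of all tested genes with mutant higher (15.6%) and 1959 with mutant lower (17.7%).

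The genes that rose came mostly from near silence. Their median level was 3.15 FPKM in mutant embryos against 0.528 FPKM in WT embryos, 38 of the 53 had a WT mean under 1 FPKM, and 9 reached a mutant mean of 5 FPKM. The genes that fell were better expressed, with medians of 4.85 FPKM in mutant embryos and 11.9 FPKM in WT embryos. The log2 differences of the rises ran from 0.68 to 2.01 with a median of 1.20, and those of the falls from −3.29 to −0.60 with a median of −1.10. Of the rises, 36 entered the test only through their mutant libraries (214 such genes were tested), and 12 of the falls only through their WT libraries (151 such genes), so those had to differ to be counted.

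**Figure D1:**
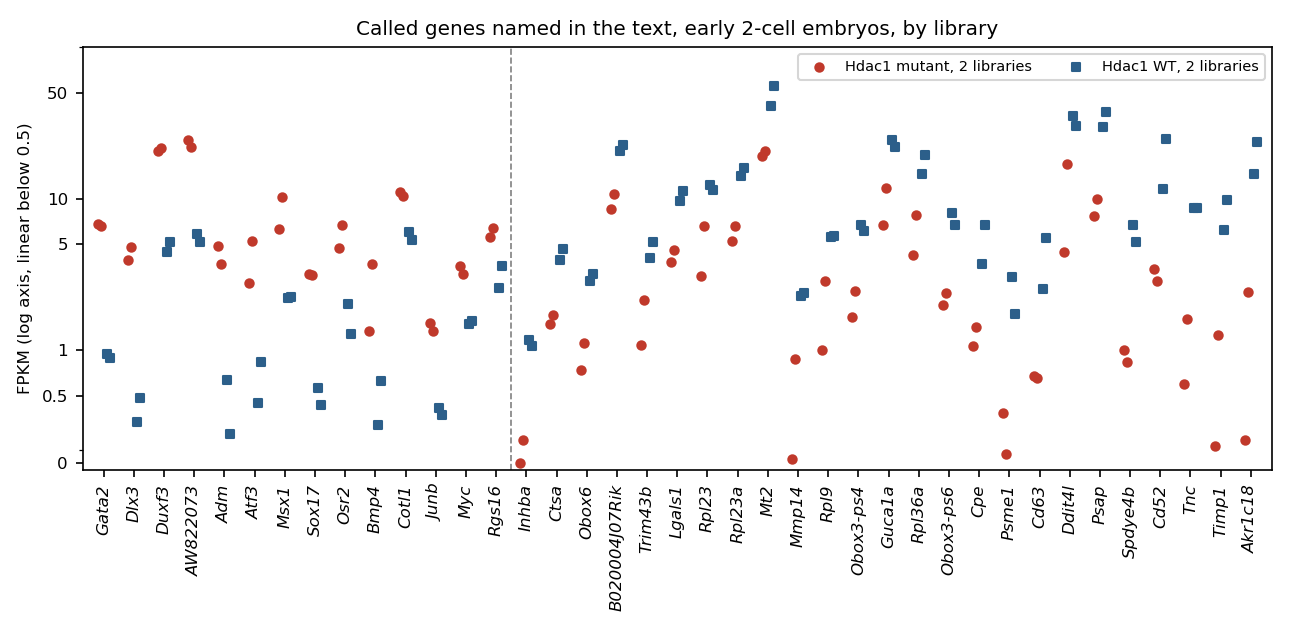
FPKM of called genes described in the text in each early 2-cell library, mutant Hdac1 (circles, 2 libraries) left of WT Hdac1 (squares, 2 libraries), on an axis that is logarithmic above 0.5 FPKM and linear below; genes left of the dashed line were called higher in mutant embryos and those right of it lower. For every gene shown the mutant values do not overlap the WT values, as with Gata2 at 6.55 and 6.82 FPKM in mutant embryos against 0.888 and 0.938 FPKM in WT embryos.

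Gata2 and Dlx3, transcription factors of later lineages, had the largest called rises. Gata2, a factor of blood and trophoblast development (chromosome 6, 88193891 to 88207032, plus strand), had 6.82 and 6.55 FPKM in mutant embryos, against 0.938 and 0.888 FPKM in WT embryos. Dlx3, a homeobox factor of placenta and skin (chromosome 11, 95120119 to 95125296, plus strand), had 3.90 and 4.79 FPKM in mutant embryos, against 0.304 and 0.481 FPKM in WT embryos. Both genes were low in each WT library and several times higher in each mutant library. Both were tested only through their mutant libraries, so they had to differ to be counted. The log2 differences were 2.01 ± 0.23 for Gata2 (adjusted p = 0.000441, limma) and 1.94 ± 0.21 for Dlx3 (adjusted p = 0.000340).

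Msx1, a homeobox factor of limb and craniofacial development (chromosome 5, 37820485 to 37824583, minus strand), had 6.25 and 10.3 FPKM in mutant embryos, against 2.19 and 2.23 FPKM in WT embryos (1.49 ± 0.23, adjusted p = 0.00402). Osr2, a zinc finger factor of palate development, had 4.70 and 6.67 FPKM in mutant embryos, against 2.02 and 1.27 FPKM in WT embryos (1.34 ± 0.19, adjusted p = 0.00251). Sox17, which specifies endoderm, had 3.16 and 3.14 FPKM in mutant embryos, against 0.562 and 0.430 FPKM in WT embryos (1.47 ± 0.30, adjusted p = 0.0229). In these 3 genes the mutant libraries again all lay above the WT libraries, Msx1 and Osr2 from a low WT level and Sox17 from below 1 FPKM.

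Of 44 lineage transcription factors in the list, 23 were tested, 7 were called higher, 0 lower, and 16 were not called. Among all tested genes 0.478% were called higher and 0.667% lower. The called members were Gata2, Dlx3, Msx1, Osr2, Sox17, Eomes, which acts in trophoblast and endoderm, and Pax6, a factor of eye and brain. The other 16 included Pou5f1, the pluripotency factor OCT4, at 334 and 311 FPKM in mutant embryos and 332 and 280 FPKM in WT embryos, and Gata4 at 23.0 and 24.2 FPKM in mutant embryos and 24.4 and 27.1 FPKM in WT embryos. The median log2 difference was 0.29 over the 23 tested members and 0.23 over all 44, beside −0.0086 over all tested genes. With a filter of 5 FPKM the list held 2 calls and a median of 0.09. Of the 23, 4 were tested only through their mutant libraries, among them the called genes Gata2, Dlx3 and Sox17. Among members that were too low to be tested, Cdx2 stood at 0.965 and 1.24 FPKM in mutant embryos and at 0.613 and 0.250 FPKM in WT embryos.

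These calls differed in how far they rested on single libraries. With any 1 of the 4 libraries left out, Gata2, Dlx3, Msx1 and Osr2 stayed under an adjusted p of 0.05 in limma (0.00293 to 0.0458). Sox17 passed in none of the 4 such fits (0.0981 to 0.189). The list held 6 calls without mutant replicate 1 and 4 without any other single library. Eomes and Pax6 passed only without mutant replicate 1 (0.00976 and 0.0408) and were at 0.0658 to 0.117 in the other fits.

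The promoters of Gata2 and Msx1 are shown because both genes rose, and each can be set beside the start regions of Duxf3 and Zscan4c given with those genes. Sequences are from RefSeq on GRCm38.p6, 250 bases before to 50 after the first start listed for the gene, 5′ to 3′ on the gene's strand, with every CG dinucleotide in capitals. The Gata2 window (chr6:88193641-88193940, plus strand) holds 32 CG and the Msx1 window (chr5:37824536-37824835, minus strand) 29.
Gata2: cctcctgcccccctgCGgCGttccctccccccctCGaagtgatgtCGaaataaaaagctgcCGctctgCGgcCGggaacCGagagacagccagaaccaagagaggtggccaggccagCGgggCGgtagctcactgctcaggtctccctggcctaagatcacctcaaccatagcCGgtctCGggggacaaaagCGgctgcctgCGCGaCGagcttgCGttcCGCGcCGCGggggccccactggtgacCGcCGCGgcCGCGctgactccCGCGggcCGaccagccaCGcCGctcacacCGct
Msx1: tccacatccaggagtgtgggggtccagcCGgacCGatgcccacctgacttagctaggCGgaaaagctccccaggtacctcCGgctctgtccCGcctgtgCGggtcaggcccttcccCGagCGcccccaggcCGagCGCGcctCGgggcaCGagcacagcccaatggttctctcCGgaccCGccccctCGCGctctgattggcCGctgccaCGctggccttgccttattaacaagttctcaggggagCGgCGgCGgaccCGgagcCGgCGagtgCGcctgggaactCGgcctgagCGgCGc
The median was 21.0 CG over tested genes with a window in the table and 7.0 over all 27025 windows, and 94.2% of all windows hold at least 1 CG. Windows were found for 76 of the 127 called genes, which is under 80%, so the called genes were not compared with others as a set.

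Adm, Atf3 and Bmp4 also rose. Adm, the vasodilator peptide adrenomedullin, had 4.87 and 3.72 FPKM in mutant embryos, against 0.638 and 0.218 FPKM in WT embryos (1.90 ± 0.27, adjusted p = 0.00222). Atf3, a stress-induced transcription factor, had 2.76 and 5.21 FPKM in mutant embryos, against 0.448 and 0.837 FPKM in WT embryos (1.57 ± 0.29, adjusted p = 0.0136). Both were below 1 FPKM in each WT library. Bmp4, a ligand that patterns the embryo after implantation, had 1.34 and 3.67 FPKM in mutant embryos, against 0.280 and 0.629 FPKM in WT embryos (1.20 ± 0.26, adjusted p = 0.0364).

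Of 18 immediate-early genes tested, Atf3, Junb and Myc were called higher, 0 were called lower, and the list's median was 0.28. Calls over all tested genes were 0.478% higher and 0.667% lower. Atf3 and Junb, like Adm and Bmp4, were tested only through their mutant libraries. The median was 0.53 without mutant replicate 1, and 0.05 with 0 calls under a filter of 5 FPKM. Junb, an AP-1 subunit, had 1.50 and 1.34 FPKM in mutant embryos and 0.407 and 0.353 FPKM in WT embryos, and Myc, a growth-promoting factor, had 3.61 and 3.18 FPKM in mutant embryos and 1.49 and 1.55 FPKM in WT embryos. The classical members Fos (1.14 ± 0.36, adjusted p = 0.223) and Jun (0.85 ± 0.22, adjusted p = 0.0794) did not pass. Of 10 BMP ligands and Id genes tested, Bmp4 alone was called, and under the filter of 5 FPKM none was. The Id genes, which are targets of BMP signalling, gave Id1 at 0.87 ± 0.29 (adjusted p = 0.239) and Id2 at 0.85 ± 0.23 (adjusted p = 0.106). Adm passed with any 1 library left out (0.00704 to 0.0424), Atf3 and Bmp4 only without mutant replicate 1 (0.0137 and 0.00608; otherwise 0.0568 to 0.346), and Junb and Myc in none of these fits (0.0941 to 0.234). Of the immediate-early list, 1 gene was called without mutant replicate 1 and 0 without any other single library.

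Cotl1 and Rgs16 were among the better expressed rises. Cotl1, an actin-binding protein, had 11.1 and 10.4 FPKM in mutant embryos, against 5.99 and 5.32 FPKM in WT embryos (0.82 ± 0.14, adjusted p = 0.00692). Rgs16, which damps G protein signalling, had 5.58 and 6.36 FPKM in mutant embryos, against 2.58 and 3.58 FPKM in WT embryos (0.78 ± 0.17, adjusted p = 0.0349). In both the mutant libraries lay close together and above both WT libraries. Cotl1 was lost without WT replicate 2 (adjusted p = 0.0968) and without mutant replicate 1 (0.0616), and Rgs16 in all 4 such fits (0.0568 to 0.335).

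Duxf3, a copy of the Dux gene in its repeat array (chromosome 10, 58229979 to 58232675, minus strand), and AW822073, its neighbour on the same strand (58222972 to 58224930), had the highest mutant levels of all the genes that rose. Duxf3 had 20.5 and 21.4 FPKM in mutant embryos, against 4.45 and 5.13 FPKM in WT embryos. AW822073 had 24.5 and 21.98 FPKM in mutant embryos, against 5.81 and 5.18 FPKM in WT embryos. In both genes each mutant library stood far above each WT library. The log2 differences were 1.93 ± 0.26 for Duxf3 (adjusted p = 0.00135, limma) and 1.90 ± 0.28 for AW822073 (adjusted p = 0.00281), and both passed with any 1 library left out (0.0103 to 0.0424). Reads of near-identical Dux copies may be shared among them, so the values of both genes are uncertain as to copy. They were the only pair among the 53 rises that lay within 100 kb of each other.

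Genes of the 2-cell burst that were called, other than these, all fell. Zscan4c, a telomere-associated zinc finger protein of 2-cell embryos (chromosome 7), had 13.6 and 23.3 FPKM in mutant embryos, against 37.9 and 35.2 FPKM in WT embryos, a log2 difference of −0.99 ± 0.21 (adjusted p = 0.0345, limma). Trim43b, of a family of 2-cell ubiquitin ligases, had 1.09 and 2.15 FPKM in mutant embryos, against 4.06 and 5.16 FPKM in WT embryos (−1.12 ± 0.21, adjusted p = 0.0136). Each was lower in every mutant library. Usp17lb, a deubiquitinase gene, Ubtfl1, a relative of a ribosomal DNA transcription factor, and B020004J07Rik also fell, by 0.95, 0.76 and 1.09.

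Of 33 Dux and 2-cell burst genes tested, 2 were called higher, Duxf3 and AW822073, 5 were called lower, and 26 were not called. Among all tested genes 0.478% were called higher and 0.667% lower. All 31 members other than Duxf3 and AW822073 had log2 differences below 0, and in 25 of them the mutant libraries both lay below the WT libraries. In this way 17.7% of all tested genes lay below and 15.6% above. The median was −0.60, beside −0.0086 over all tested genes. Zscan4f had 39.0 and 60.6 FPKM in mutant embryos and 106 and 105 FPKM in WT embryos (−1.10 ± 0.26, adjusted p = 0.0521), and Tcstv3 had 20.6 and 23.3 FPKM in mutant embryos and 42.3 and 43.5 FPKM in WT embryos (−0.94 ± 0.22, adjusted p = 0.0505). These values just missed the threshold, as Tdpoz4 did at −1.10 ± 0.27 (0.0629). At the other end of the list, Arg2, Tcstv1 and Sp110 were at −0.05, −0.09 and −0.14. The Zscan4, Usp17l, Tdpoz and Trim43 families hold near-identical copies, so their members are not independent. Zscan4c, Ubtfl1 and B020004J07Rik passed only without mutant replicate 2 (0.00533, 0.0462 and 0.0204; otherwise 0.0604 to 0.293), Usp17lb also without WT replicate 2 (0.0390), and Trim43b also without WT replicate 1 (0.0450). The 5 lower calls of the list became 0 without mutant replicate 1, 9 without mutant replicate 2, and 1 without either WT replicate, while its median ran from −0.81 to −0.42.

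The start regions of Duxf3 (chr10:58233040-58233339, minus strand), which rose, and of Zscan4c (chr7:11005495-11005794, plus strand), which fell, are shown as chosen examples beside the windows of Gata2 and Msx1 above. They hold 3 and 4 CG, in capitals. The RefSeq start of Duxf3 lies outside the GENCODE interval given for the gene.
Duxf3: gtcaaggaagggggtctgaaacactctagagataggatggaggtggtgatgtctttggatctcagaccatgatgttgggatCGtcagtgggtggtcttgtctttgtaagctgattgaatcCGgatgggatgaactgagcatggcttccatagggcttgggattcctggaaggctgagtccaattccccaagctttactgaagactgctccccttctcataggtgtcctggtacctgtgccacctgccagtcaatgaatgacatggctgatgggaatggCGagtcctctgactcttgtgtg
Zscan4c: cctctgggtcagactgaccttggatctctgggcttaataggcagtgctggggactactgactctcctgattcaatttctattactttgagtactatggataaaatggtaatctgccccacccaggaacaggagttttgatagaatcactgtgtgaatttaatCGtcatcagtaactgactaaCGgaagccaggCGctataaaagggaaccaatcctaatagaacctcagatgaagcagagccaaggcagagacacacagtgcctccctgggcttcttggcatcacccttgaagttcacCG
Both windows are below the median of tested genes in CG number, although 1 gene rose and the other fell. Other called genes, picked after their values were seen, also differed within a direction. Bud23 and Tat rose with 4 and 5 CG, and Ppia and Gnao1 fell with 43 and 42.

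**Figure D2:**
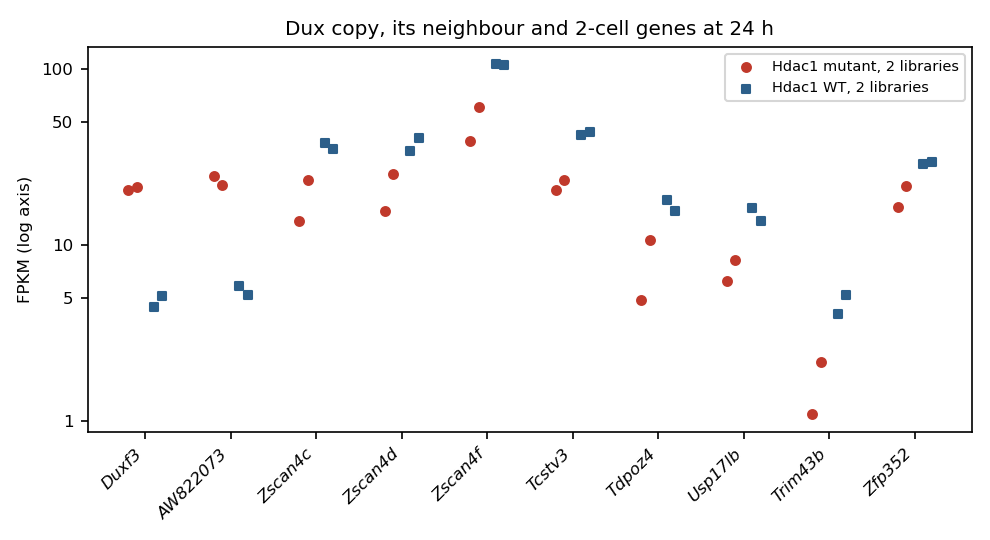
FPKM (log axis) of Duxf3, its neighbour AW822073 and 8 genes of the 2-cell burst list in each early library, mutant Hdac1 (circles, 2 libraries) left of WT Hdac1 (squares, 2 libraries). Duxf3 and AW822073 lie higher in mutant embryos and the other 8 genes lie lower, as with Zscan4f at 39.0 and 60.6 FPKM in mutant embryos against 106 and 105 FPKM in WT embryos.

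Ribosomal protein genes that were called all fell. Of 79 cytosolic ribosomal protein genes, all of them tested, 13 were called lower, 0 higher and 66 were not called, and 72 had a log2 difference below 0. The median was −0.45. In 48 of the 79 both mutant libraries lay below both WT libraries, and in 1, Rps15a, both lay above, where 17.7% of all tested genes lay below and 15.6% above in this way. Of all tested genes 0.667% were called lower. Ribosomal protein genes have many near-identical processed pseudogenes, with which they may share reads.

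Rpl23a, of the large subunit, had 5.22 and 6.57 FPKM in mutant embryos, against 14.2 and 16.0 FPKM in WT embryos (−1.23 ± 0.16, adjusted p = 0.000844, limma). Rpl36a had 4.22 and 7.83 FPKM in mutant embryos, against 14.5 and 19.4 FPKM in WT embryos (−1.39 ± 0.31, adjusted p = 0.0440). Rpl9 had 0.997 and 2.85 FPKM in mutant embryos, against 5.61 and 5.68 FPKM in WT embryos (−1.26 ± 0.23, adjusted p = 0.0121). All 3 were lower in both mutant libraries, and mutant replicate 1 was the lowest library in each. Rpl23 fell by 1.20, from the large subunit, and Rps19, Rps25 and Rps26 of the small subunit by 1.10, 1.08 and 1.02. Among members that were not called, and picked here after their values were seen, Rps27l was at −0.05, Rplp2 at −0.06 and Rpl13a at −0.31. Both mutant libraries listed Rps27 at 0, against 1.40 and 2.29 FPKM in WT embryos, without a call. Rpl23a passed with any 1 library left out (0.00253 to 0.0238), while Rpl36a, Rpl9 and Rpl23 passed only without mutant replicate 2 (0.0270, 0.000435 and 0.00381; otherwise 0.0797 to 0.380). The 13 calls became 2 without mutant replicate 1, 14 without mutant replicate 2, 4 without WT replicate 1 and 3 without WT replicate 2, while the median ran from −0.51 to −0.39.

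The neighbouring steps of ribosome and RNA metabolism gave no calls at this stage. Of 64 ribosome biogenesis factors, 36 translation initiation factors and 60 pre-mRNA splicing factors tested, 0 were called in either direction, and the medians were −0.04, −0.10 and −0.07. Log2 differences were below 0 in 36, 26 and 38 of them. Both mutant libraries lay below both WT libraries in 11, 12 and 13 and above them in 10, 1 and 4. In this way 17.7% of all tested genes lay below and 15.6% above.

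Obox6, a homeobox gene of the oocyte and early embryo (chromosome 7, 15833241 to 15839678, minus strand), had 0.744 and 1.11 FPKM in mutant embryos, against 2.87 and 3.15 FPKM in WT embryos, a log2 difference of −1.06 ± 0.21 (adjusted p = 0.0194, limma). The pseudogene Obox3-ps6 had 1.97 and 2.38 FPKM in mutant embryos, against 8.07 and 6.69 FPKM in WT embryos, and fell by 1.40 (adjusted p = 0.000601). The pseudogene Obox3-ps4 had 1.66 and 2.47 FPKM in mutant embryos, against 6.65 and 6.11 FPKM in WT embryos, and fell by 1.28 (adjusted p = 0.00195). In all 3 both mutant libraries were below both WT libraries. Obox3 itself was at −0.65 ± 0.21 (adjusted p = 0.223). Maternal members were not called, with Obox1 at 754 and 625 FPKM in mutant embryos and 740 and 676 FPKM in WT embryos, and Obox5 at 0.05 ± 0.20. Of 25 Obox genes and genome activation regulators tested, Obox6 was the only one called, and the list's median was 0.01. Among all tested genes 0.667% were called lower. The pseudogenes kept their calls with any 1 library left out (0.00284 to 0.0293), while Obox6 passed only without mutant replicate 2 (0.0345; otherwise 0.0921 to 0.160).

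Lysosomal genes gave the fall with the smallest adjusted p. Psap, the precursor of the saposins that activate sphingolipid hydrolysis (chromosome 10, 60277627 to 60302597, plus strand), had 7.61 and 9.92 FPKM in mutant embryos, against 29.6 and 37.3 FPKM in WT embryos. The log2 difference was −1.82 ± 0.15 (adjusted p = 2.72e-05, limma), and it passed with any 1 library left out (8.71e-05 to 0.00153). Cd63, a tetraspanin of late endosomes, had 0.677 and 0.657 FPKM in mutant embryos, against 2.52 and 5.46 FPKM in WT embryos (−1.52 ± 0.24, adjusted p = 0.00402). Ctsa, cathepsin A, had 1.48 and 1.70 FPKM in mutant embryos, against 3.95 and 4.67 FPKM in WT embryos (−1.03 ± 0.19, adjusted p = 0.0140). These 3 were the called members among 27 lysosomal genes tested, of which 0 were called higher, and the median was −0.14. Among all tested genes 0.667% were called lower and 0.478% higher. Among the members not called, picked after their values were seen, were Ctsl at −0.10, Lamp1 at −0.09 and Npc2 at 0.04. Cd63 was lost without WT replicate 2 (0.0568), and Ctsa passed only without mutant replicate 2 (0.0411; otherwise 0.0582 to 0.155). The list held 1 lower call without WT replicate 2, 1 higher call beside 2 lower ones without mutant replicate 1, and 1 lower call with a filter of 5 FPKM.

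Among genes that many cells raise under inhibitors of histone deacetylases, those called did not share a direction. Of 21 tested, 2 were called higher, Adm and Atf3 above, and 3 lower, with a median of 0.18. Among all tested genes 0.478% were called higher and 0.667% lower. Differences were above 0 in 14 of the 21 and below 0 in 7. Both mutant libraries lay above both WT libraries in 10 and below them in 5. Over all tested genes 15.6% lay above and 17.7% below in this way. Only through their mutant libraries were 2 of the 21 tested. The metallothioneins Mt1 and Mt2 bind zinc and lie side by side on chromosome 8. Mt1 had 17.1 and 23.5 FPKM in mutant embryos, against 36.6 and 52.6 FPKM in WT embryos (−1.09 ± 0.22, adjusted p = 0.0212, limma). Mt2 had 19.1 and 20.6 FPKM in mutant embryos, against 41.0 and 55.7 FPKM in WT embryos (−1.23 ± 0.24, adjusted p = 0.0187). Lgals1, the lectin galectin-1, had 3.82 and 4.56 FPKM in mutant embryos, against 9.61 and 11.2 FPKM in WT embryos (−1.13 ± 0.25, adjusted p = 0.0392). These 3 were lower in both mutant libraries. Cdkn1a, the cell cycle inhibitor p21 and a common target of such inhibitors, had 7.85 and 10.2 FPKM in mutant embryos and 7.07 and 5.84 FPKM in WT embryos (0.42 ± 0.15, adjusted p = 0.323). Mt2 passed only without WT replicate 1 (0.0424; otherwise 0.0640 to 0.231), Mt1 also without mutant replicate 2 (0.0305 and 0.0246), and Lgals1 in none of the 4 fits (0.0924 to 0.299).

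The largest called falls were those of Akr1c18, Timp1 and Tnc. Akr1c18, which inactivates progesterone (chromosome 13, 4132615 to 4150654, minus strand), had 0.172 and 2.40 FPKM in mutant embryos, against 14.5 and 23.7 FPKM in WT embryos. Tnc, the matrix protein tenascin C (chromosome 4, 63959785 to 64047015, minus strand), had 0.595 and 1.60 FPKM in mutant embryos, against 8.72 and 8.69 FPKM in WT embryos. Timp1, an inhibitor of matrix metalloproteinases, had 0.125 and 1.26 FPKM in mutant embryos, against 6.24 and 9.74 FPKM in WT embryos. In all 3 mutant replicate 1 was the lowest library and both mutant libraries were far below the WT libraries. The log2 differences were −3.29 ± 0.41 for Akr1c18 (adjusted p = 0.000821, limma), −2.25 ± 0.22 for Tnc (0.000212) and −2.47 ± 0.51 for Timp1 (0.0241).

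Cd52, a surface glycoprotein of leukocytes and the male reproductive tract, had 3.42 and 2.84 FPKM in mutant embryos, against 11.5 and 24.6 FPKM in WT embryos (−2.12 ± 0.43, adjusted p = 0.0212). Mmp14, a membrane-bound matrix metalloproteinase, had 0.0319 and 0.874 FPKM in mutant embryos, against 2.29 and 2.36 FPKM in WT embryos (−1.26 ± 0.22, adjusted p = 0.0108). Inhba, the activin subunit and a granulosa cell product, was listed at 0 and at 0.174 FPKM in mutant embryos, against 1.16 and 1.07 FPKM in WT embryos (adjusted p = 0.0210). Of 17 matrix genes tested 3 were called lower (Tnc, Timp1 and Mmp14) and 0 higher. Their median was −0.23, which became 0.04 with a filter of 5 FPKM. Of 14 genes of steroid metabolism 1 was called lower (Akr1c18) and 0 higher, with a median of −0.13. Calls over all tested genes were 0.667% lower and 0.478% higher. Akr1c18 and Tnc passed with any 1 library left out (8.71e-05 to 0.0228). Timp1, Mmp14 and Inhba passed only without mutant replicate 2 (0.0266, 0.000874 and 0.0379; otherwise 0.0742 to 0.244), and Cd52 only without WT replicate 1 (0.0288; otherwise 0.0966 to 0.299).

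Markers of the cumulus and granulosa cells that surround the oocyte were mostly low in both groups. Of 27 in the values, 21 had a mean under 1 FPKM, and 12 were lower in both mutant libraries than in both WT libraries while 4 were higher. Of the 9 tested, 7 were lower in this way and 1 higher, where 17.7% and 15.6% of all tested genes were. The summed level of the 27 was 56.8 and 57.6 FPKM in mutant embryos, against 65.8 and 82.3 FPKM in WT embryos. Without Serpine2, which made up most of it, the sum was 10.4 and 14.6 FPKM in mutant embryos, against 17.4 and 25.1 FPKM in WT embryos. Inha, Ereg and Sult1e1 were listed at 0 in both mutant libraries, Sult1e1 also in both WT libraries, where Inha was at 0.734 and 1.16 FPKM and Ereg at 0.0842 and 0. Of the 9 tested markers only Inhba was called, and it entered the test only through its WT libraries. The part of such cells in the falls above was not tested. Among blood markers Cd52 was called lower, while Hba-a1, Hba-a2 and Lyz2 lay higher in both mutant libraries without a call, and Hbb-bs and Hbb-bt were listed at 0 in all 4 libraries.

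The remaining named falls had no common group. Spdye4b, a cell cycle activator of the Speedy family, had 1.001 and 0.828 FPKM in mutant embryos, against 6.70 and 5.20 FPKM in WT embryos (−1.85 ± 0.29, adjusted p = 0.00402, limma). Guca1a, known as an activator of guanylate cyclase in photoreceptors, had 6.69 and 11.8 FPKM in mutant embryos, against 24.3 and 21.97 FPKM in WT embryos (−1.28 ± 0.19, adjusted p = 0.00281). Ddit4l, a stress-induced inhibitor of mTOR, had 4.40 and 16.8 FPKM in mutant embryos, against 35.3 and 30.3 FPKM in WT embryos (−1.78 ± 0.37, adjusted p = 0.0263). The mutant libraries of Ddit4l differed widely, yet both were below the WT libraries. Cpe, a peptide hormone processing enzyme, and Psme1, a proteasome activator subunit, fell by 1.43 and 1.45 (adjusted p = 0.0427 and 0.0431). Guca1a passed with any 1 library left out (0.000228 to 0.0385), Spdye4b was lost without WT replicate 1 (0.0610), Ddit4l passed only without mutant replicate 2 (0.000140; otherwise 0.133 to 0.193), and Cpe and Psme1 passed in none of the 4 fits (0.0553 to 0.473).

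Maternal and chromatin genes gave no calls. Among 57 maternal oocyte factors, 30 maternal mRNA decay factors, 16 histone deacetylases and sirtuins, 36 subunits of their corepressor complexes, 17 imprinted genes, 16 genes of DNA methylation, 17 that set or remove H3K4 methylation and 23 that add or read histone acetylation tested, 0 were called in either direction. Their medians ran from −0.03 to 0.03. The 22 p53 targets, 17 heat shock genes, 44 cell cycle genes and 13 mitochondrially encoded mRNAs also had 0 calls. Without a call, 12 of the 13 mitochondrially encoded mRNAs had log2 differences below 0, with a median of −0.10. Both mutant libraries lay below both WT libraries in 7 of the 13 and above them in 1, beside 17.7% and 15.6% of all tested genes. Of 27 integrated and ER stress genes Atf3 alone was called higher and Ddit4l alone lower, and of 37 proteasome subunits Psme1 alone was called. Calls over all tested genes were 0.478% higher and 0.667% lower.

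**Figure D3:**
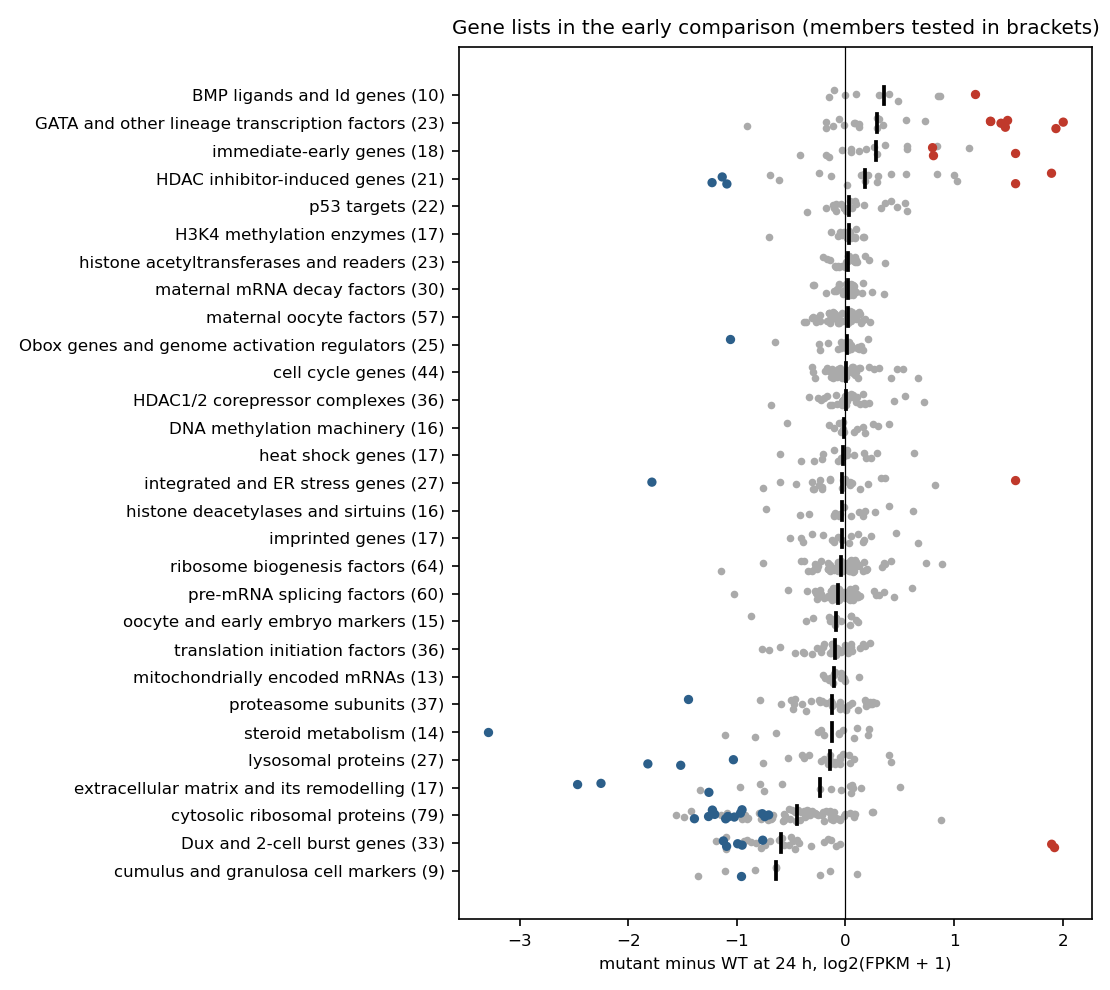
Log2 difference, mutant minus WT, of log2(FPKM + 1) at 24 h for every tested member of each gene list with at least 9 tested members, with the number tested in brackets; red points were called higher in mutant embryos, blue points lower, grey points neither, and black bars are list medians. The lists of Dux and 2-cell burst genes (median −0.60) and cytosolic ribosomal proteins (median −0.45) lie left of 0, while the lists of maternal factors and chromatin enzymes centre on it.

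Some called genes lay near each other. Besides Duxf3 and AW822073, 11 of the 74 falls had another fall within 100 kb. Mt1 and Mt2 were among them, as were the predicted genes Gm12617, Gm12620 and Gm12626. How often tested genes would neighbour each other in this way was not worked out. Coordinates were found for 124 of the 127 called genes. The median span of the gene in GENCODE was 7208 bases for the rises and 4375 bases for the falls, against 22410.5 bases over the tested genes with coordinates. Of the rises 50 were protein coding and 3 were pseudogenes, and of the falls 56 were protein coding and 11 were pseudogenes, where 89.9% of tested genes with coordinates were protein coding and 6.18% were pseudogenes.

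The 36 h comparison shows where these genes stood at the late 2-cell stage, in separate libraries. Far more genes were called then, 2651 higher (23.9% of the same 11099 genes) and 3060 lower (27.6%). Of the 53 early rises, 47 were also called higher late (88.7%), 2 were called lower and 4 were not called. They made up 1.77% of the late higher calls. The median difference of the early rises was 3.31 at 36 h in the Hdac1 comparison. Across all tested genes the early and late differences correlated with Pearson's r of 0.226 and Spearman's rho of 0.172, a description over genes, which are not independent.

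Gata2 reached 99.4 and 93.1 FPKM in mutant late embryos, against 0.891 and 1.66 FPKM in WT late embryos, a log2 difference of 5.44. Msx1 was at 95.1 and 94.2 FPKM in mutant late embryos, against 2.75 and 2.78 FPKM in WT late embryos (4.67). Bmp4 was at 50.0 and 45.8 FPKM in mutant late embryos, against 0.405 and 0.254 FPKM in WT late embryos (5.20). In each of the 3 genes both mutant late libraries lay far above both WT late libraries. Tested directly, the late effect was larger than the early one by 3.43 ± 0.32 for Gata2, 3.17 ± 0.33 for Msx1 and 4.01 ± 0.37 for Bmp4 (adjusted p = 2.07e-06, 4.39e-06 and 1.89e-06, limma).

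In that test of the difference, late minus early, 44 of the 53 rises were called higher and 5 lower (17.3% and 20.0% of all tested genes were). Duxf3 and AW822073 were called higher at both stages with no called difference. Duxf3 was at 3.90 and 5.88 FPKM in mutant late embryos, against 0.419 and 0.280 FPKM in WT late embryos, so its level was below that of 24 h in both groups, and its difference between stages was 0.18 ± 0.36 (adjusted p = 0.748). AW822073 was at 4.82 and 7.70 FPKM in mutant late embryos, against 0.410 and 0.996 FPKM in WT late embryos, with 0.19 ± 0.40 (adjusted p = 0.764) for the difference. The 2 early rises called lower late were Gm6055 and Tmem79, and Myc, Bud23, Tmem120a and 4930451I11Rik were not called late. Myc was at 11.4 and 9.45 FPKM in mutant late embryos and at 8.59 and 7.62 FPKM in WT late embryos.

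**Figure D4:**
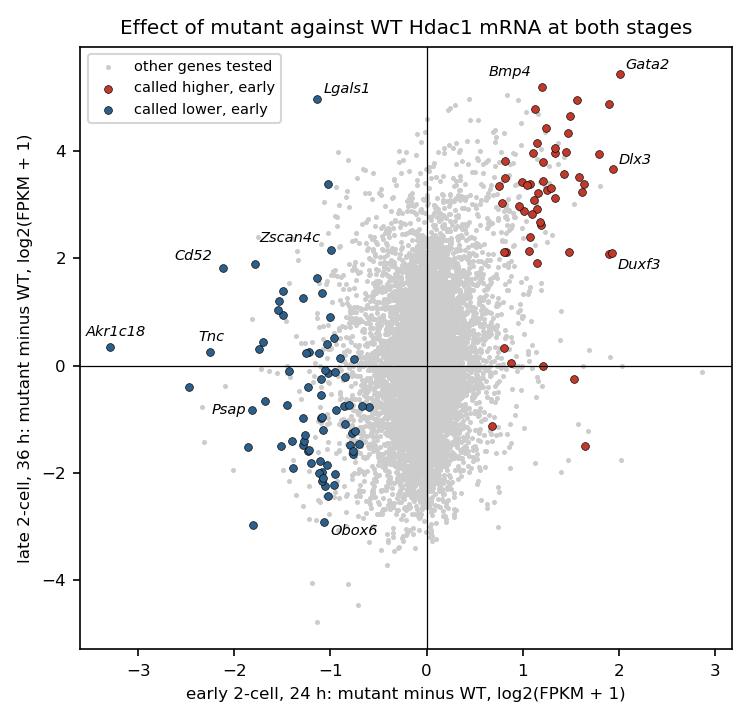
Log2 difference, mutant minus WT Hdac1, of log2(FPKM + 1) at 24 h (horizontal axis) against the same at 36 h (vertical axis) for the 11099 tested genes; red points were called higher at 24 h, blue points lower, grey points neither. The 53 early rises lie mostly in the upper right, with Gata2 at 2.01 and 5.44, while the 74 early falls lie on both sides of 0 on the vertical axis, with Obox6 at −2.92 and Lgals1 at 4.98.

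The early falls parted at 36 h. Of the 74, 41 were also called lower late (55.4%), 15 were called higher (20.3%) and 18 were not called. Over all tested genes 27.6% were called lower late and 23.9% higher. The 41 made up 1.34% of the late lower calls. In WT embryos 40 of the 41 stood at least 2-fold higher at 36 h than at 24 h, on the FPKM + 1 scale. So did 1 of the 15 called higher late and 6 of the 18 not called. In all that was 47 of the 74 (63.5%), beside 24.4% of all tested genes. Another 21.6% of the falls stood at least 2-fold lower in WT embryos at 36 h, beside 31.1% of all tested genes. Whether the groups differed in developmental timing at 24 h was not tested. The median difference of the early falls was −0.76 at 36 h. In the test of late minus early, 32 of the 74 were called higher, 14 lower and 28 not called. Of all tested genes 17.3% were called higher and 20.0% lower in it. That test reuses the early values by which the falls were picked.

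Obox6 was at 11.6 and 20.4 FPKM in mutant late embryos, against 133 and 114 FPKM in WT late embryos (−2.92), and its effect was larger late by −1.86 ± 0.29 (adjusted p = 0.000148, limma). Rpl23a was at 27.9 and 34.1 FPKM in mutant late embryos, against 88.3 and 99.6 FPKM in WT late embryos (−1.57), and Trim43b at 33.3 and 51.5 FPKM in mutant late embryos, against 162 and 177 FPKM in WT late embryos (−2.01). All 3 were lower at both stages in each mutant library. Mt2 was at 197 and 125 FPKM in mutant late embryos, against 588 and 387 FPKM in WT late embryos (−1.60). Of the 79 ribosomal protein genes 68 were called lower and 0 higher late, with a median of −1.40. Psap was still lower, at 44.8 and 44.8 FPKM in mutant late embryos against 73.7 and 87.0 FPKM in WT late embryos (−0.83), a smaller difference than at 24 h by 0.99 ± 0.21 (adjusted p = 0.00150).

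The 15 early falls called higher at 36 h were 20.3% of the falls, beside 23.9% of all tested genes called higher then. Lgals1 was at 76.1 and 65.1 FPKM in mutant late embryos, against 1.77 and 0.839 FPKM in WT late embryos, a log2 difference of 4.98, and the change of its effect between stages, 6.12 ± 0.35 (adjusted p = 9.67e-08, limma), was the largest upward one among the genes eligible to be named. Zscan4c was at 62.8 and 61.6 FPKM in mutant late embryos, against 12.8 and 13.5 FPKM in WT late embryos (2.16), so it was below WT at 24 h and above it at 36 h. Ddit4l was at 70.5 and 99.6 FPKM in mutant late embryos, against 18.7 and 25.4 FPKM in WT late embryos (1.90). For all 15 early falls called higher late the difference between stages was itself called. That had to follow, because both effects were called with opposite signs in the same fit. Of the 33 tested Dux and 2-cell burst genes 15 were called higher and 9 lower at 36 h, with a median of 0.10. Over all tested genes 23.9% were called higher and 27.6% lower.

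The falls without a late call included Akr1c18 and Tnc. Akr1c18 was at 0 and 0.614 FPKM in mutant late embryos and listed at 0 in both WT late libraries. Tnc was at 0.0870 and 0.582 FPKM in mutant late embryos and at 0.152 and 0.0386 FPKM in WT late embryos. Both genes were near 0 in all late libraries of the Hdac1 comparison. The difference between stages was 3.64 ± 0.58 for Akr1c18 (adjusted p = 0.000160, limma) and 2.51 ± 0.32 for Tnc (2.14e-05). With late values near 0, these differences mostly restate the early falls. Water-injected late embryos had 1.13 and 0 FPKM of Akr1c18 and 0.0961 and 0.0840 FPKM of Tnc.

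Most of the early rises were also called higher at 36 h with the Hdac2 mutant and with FK228, in libraries separate from the early ones. All these comparisons share 1 estimate of the spread for each gene, so their calls are not independent. Of the 53 rises 47 were called higher with mutant against WT Hdac2 (22.6% of all tested genes were, and 51.0% were called in either direction) and 47 with FK228 against DMSO (24.0%), with median differences of 3.32 and 2.997. The number called higher in all 3 late comparisons was 47 of 53, where it was 15.1% of all tested genes. Of the 74 falls, 36 were called lower in all 3, against 22.9% of all tested genes. Gata2 was at 163 and 170 FPKM with the Hdac2 mutant against 2.75 and 4.37 FPKM with WT Hdac2, and at 161 and 171 FPKM with FK228 against 4.73 and 5.07 FPKM with DMSO. Duxf3 was at 7.31 and 13.3 FPKM with the Hdac2 mutant against 0.690 and 0.321 FPKM with WT Hdac2, and at 15.3 and 19.9 FPKM with FK228, against 0.177 FPKM and a listed 0 with DMSO.

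**Figure D5:**
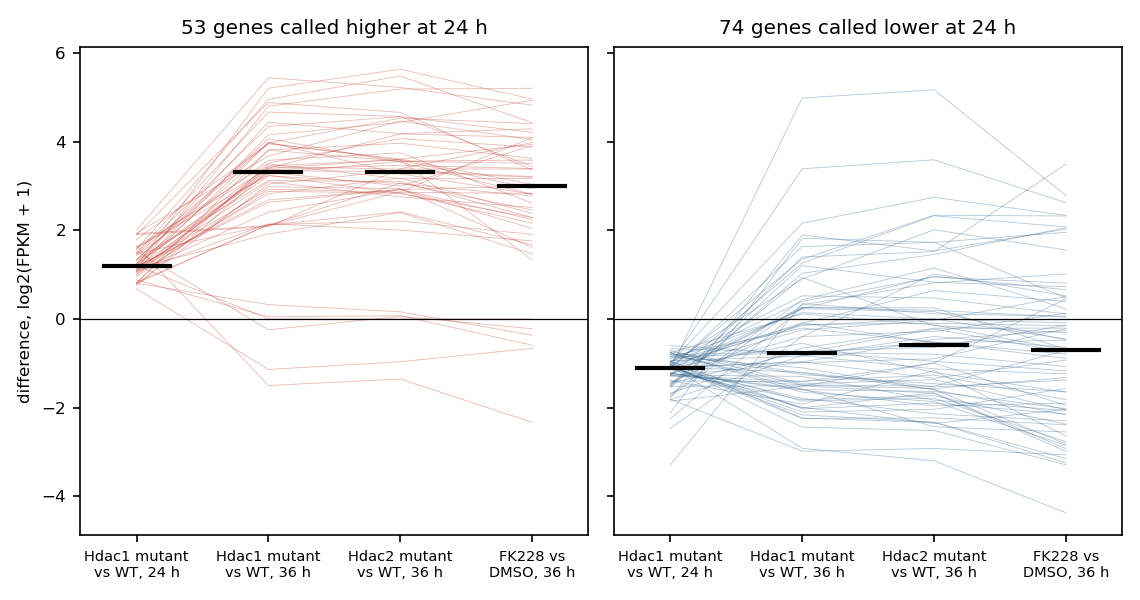
Log2 difference of log2(FPKM + 1) for the 53 genes called higher (left) and the 74 called lower (right) at 24 h, 1 line per gene, in mutant against WT Hdac1 at 24 h and then at 36 h, mutant against WT Hdac2 at 36 h and FK228 against DMSO at 36 h; black bars are medians. The median of the rises is 1.20 at 24 h and 3.31, 3.32 and 2.997 in the late comparisons, while the falls spread to both sides of 0.

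The 24 h counts depend on the spread being taken from all 22 mouse libraries. Fitted to the 4 early libraries alone, or to the 8 Hdac1 libraries, limma called 0 genes, with 805 and 576 genes at an unadjusted p under 0.05. Leaving out 1 library gave 15 to 45 rises and 24 to 97 falls, and 10 rises and 12 falls passed whichever library was left out.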

How the data were processed

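Libraries were made from polyA RNA of whole embryos, per the labels' protocols. The authors deposited FPKM values for each gene and library, and the submitters' processing notes name Trimmomatic, HISAT2, featureCounts, Cufflinks and DESeq2 and the build GRCm38, without versions. Whether counting used strand is not given in the sources used here. FPKM carry no absolute depth, so no counting interval could be given.

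Groups were taken from the labels. A gene was tested when it had at least 1 FPKM in at least 2 of the 4 early libraries. Values were fitted as log2(FPKM + 1), with a pseudocount of 1, by limma 3.58.1 in R 4.3.3, with a mean-variance trend and 1 coefficient for each of the 11 groups of the 22 mouse libraries, which left 11 residual degrees of freedom. Tests were two-sided, and genes with an adjusted p under 0.05 were called. Fold changes on this scale understate the change of low genes. The fit was checked on simulated data with 1 spread per gene for all groups. That check could not show whether a shared spread suits these libraries. The effect at 36 h minus that at 24 h was tested in the same fit.

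Named genes were the 12 largest rises and the 12 largest falls among called genes whose libraries did not overlap and whose higher group averaged at least 5 FPKM, leaving out clone and predicted symbols, then up to 4 called members of each gene list, the histone deacetylases, Kdm5b, Duxf3, AW822073 and the 3 largest stage differences each way. A few items that this rule or the lists would name are not reported here. Other genes named were chosen after their values were seen. The members and lists were chosen with earlier results of these data known. Gene positions are from GENCODE M21. Alternatives covered pseudocounts, filters, scalings, the libraries fitted, the trend, a replicate block and leaving out each library.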

Additional observations from a re-analysis of the deposited data

Results flagged for a closer look

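The effect of mutant against WT Hdac1 differed between 36 h and 24 h, by limma's test of the difference itself, for the 28 named genes given here. Values are log2 differences, late minus early. For genes named as early calls, the test reuses the early values that picked them.

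Among lineage transcription factors, the effect was larger late for Gata2 by 3.43, Msx1 by 3.17, Osr2 by 2.63, Dlx3 by 1.73 and Sox17 by 2.87. Among signalling and immediate-early genes the change was 4.01 for Bmp4, 2.98 for Adm, 3.39 for Atf3 and 3.0 for Junb. The cytoskeletal and signalling genes Cotl1 and Rgs16 changed by 2.68 and 2.26. All of these were called higher at both stages.

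Among the early falls, the effect moved upward for Akr1c18 by 3.64, Timp1 by 2.07, Tnc by 2.51, Mmp14 by 1.49, Cpe by 1.34 and B020004J07Rik by 0.85, none of which was called at 36 h. Cd52, Ddit4l, Lgals1 and Inhba, with changes of 3.94, 3.68, 6.12 and 1.48, were called lower at 24 h and higher at 36 h. Psap, with 0.99, was called lower at both stages. The effect moved further down for Obox6 at −1.86, Trim43b at −0.88 and Ctsa at −0.82.

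Hdac1 itself changed by 1.49, in separate libraries at each stage, with mutant embryos below WT embryos at 24 h and above them at 36 h. Hdac2 and Hdac3 changed by 1.37 and 1.85, and both were called higher at 36 h only.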

How the results depend on the processing

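With 53 rises and 74 falls as reported, the counts were 78 rises and 116 falls at a pseudocount of 0.1, 133 and 128 after quantile normalization, 6 rises and 56 falls with a filter of 5 FPKM, and 0 and 0 in the fits of the 4 early or the 8 Hdac1 libraries. Leaving out 1 library gave 15 to 45 rises and 24 to 97 falls, with 19 and 27 without WT replicate 1, 15 and 26 without WT replicate 2, 45 and 24 without mutant replicate 1, and 21 and 97 without mutant replicate 2. After quantile normalization 51.0% of the calls were rises, against 41.7% as reported. The replicate block gave 50 rises and 85 falls. Replicate numbers are not stated to pair the libraries, and same-numbered deviations correlated at 0.0727. The genes called higher in the test of late minus early numbered 1916 as reported, with falls that were smaller late, such as Psap, among them. They were 3683 with a filter over all 22 libraries, 899 with a filter of 5 FPKM and 3791 with no filter. In these alternatives the set of genes tested differs. The difference could not be fitted to the 4 early libraries. With 1 library left out, the log2 difference of Hdac2 ran from −0.124 to 0.0132, that of Hdac3 from −0.308 to 0.0923 and that of Hdac8 from −0.0126 to 0.124, each turning its sign; Hdac3 was at 0.0694 without mutant replicate 1 and Hdac8 at −0.0123. The cause of these shifts was not tested. Of 701 alternatives for named genes, 490 kept direction and side of the threshold, 203 lost the call, 3 gained one and 5 turned round, 0 of these among called genes. With 2 libraries a group and no known depth, low genes are the least certain.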
